A study of Mus musculus with 7 samples.

Results

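Bipolar cells carry the signal of photoreceptors to the inner retina, and their types are set apart by transcription factors and by calcium-binding proteins. The 9 genes described here are 7 such transcription factors, *Vsx1*, *Isl1*, *Bhlhe23*, *Lhx3*, *Lhx4*, *Irx5* and *Irx6*, and 2 calcium binders, *Cabp5* and *Scgn*. They were found by symbol among the 52550 genes of the count table, and all 9 passed the filter on low counts. The libraries hold total RNA of the whole retina of 12.5-week-old C57BL/6J mice, 4 WT and 3 SCA7 140Q/140Q, 1 library for the paired retinas of each mouse. The SCA7 mice are homozygous knock-ins in which both copies of *Atxn7* encode 140 glutamines under the gene's own promoter, so every cell carries the mutation and the bipolar cells were not isolated. Males and females were used, and the labels do not say which library is which. The question put to the data was whether genes that define bipolar cell types change beside the photoreceptor genes with which the model is chiefly studied.

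ON bipolar cells depolarise when light rises and OFF bipolar cells when it falls, and rod bipolar cells form an ON pathway of their own. Each type is fixed by its own set of transcription factors. *Isl1* acts in ON bipolar cells and also in amacrine and ganglion cells, *Bhlhe23* in the maturation of rod bipolar cells, and *Vsx1*, *Irx5* and *Irx6* in cone bipolar cells, mostly of the OFF kind. *Lhx3* and *Lhx4* encode LIM-homeodomain factors of cone bipolar subsets, and *Lhx4* is also transcribed in cones. CABP5 is an EF-hand protein of rod bipolar and some cone bipolar cells, and secretagogin, the product of *Scgn*, is an EF-hand protein of cone bipolar cells.

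Promoter windows, which begin upstream of the RefSeq start and reach past it, were held for 7 of the 9 genes (GRCm38.p6), not for *Irx5* and *Irx6*. The letters TAATCC, searched on both strands, form the core of sites bound by the homeodomain factors CRX and OTX2. They stood in 7.06% of 32851 promoter windows of equal length and in 2 of these 7 genes. Those 2, *Cabp5* and *Isl1*, are shown because both fell in SCA7 retina, and *Scgn* is shown beside them as the calcium binder that did not pass the test. *Vsx1* also fell, held no TAATCC and is not shown. The stretches were picked with the changes known, so they show no link between these letters and a change. Each is written 5′ to 3′ on the strand of its gene and ends before the annotated start, with TAATCC in capitals.
Cabp5, chr7:13397905-13398131, plus strand: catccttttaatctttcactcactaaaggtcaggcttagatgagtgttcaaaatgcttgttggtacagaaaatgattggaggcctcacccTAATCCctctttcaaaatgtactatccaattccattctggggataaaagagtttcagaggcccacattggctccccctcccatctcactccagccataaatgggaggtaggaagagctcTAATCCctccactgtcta
Isl1, chr13:116309690-116309938, minus strand: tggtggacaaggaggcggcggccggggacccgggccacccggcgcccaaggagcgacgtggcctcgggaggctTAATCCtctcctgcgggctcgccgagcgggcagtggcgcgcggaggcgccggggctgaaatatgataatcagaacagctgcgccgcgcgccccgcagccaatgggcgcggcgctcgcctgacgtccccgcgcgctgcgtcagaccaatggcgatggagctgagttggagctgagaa
Scgn, chr13:23991215-23991464, minus strand: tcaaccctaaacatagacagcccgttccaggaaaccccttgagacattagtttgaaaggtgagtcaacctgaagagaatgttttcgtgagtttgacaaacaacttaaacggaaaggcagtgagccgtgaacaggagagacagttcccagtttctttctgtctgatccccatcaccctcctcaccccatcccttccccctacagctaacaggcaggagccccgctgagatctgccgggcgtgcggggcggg
*Cabp5* held 2 matches, beginning -160 and -41 bases from the RefSeq start, and *Isl1* held 1, at -177. *Scgn*, *Vsx1*, *Lhx3*, *Lhx4* and *Bhlhe23* held none in their windows. The letters TAATTA, which are the same on both strands and form a core that many homeodomain proteins bind, were in 5.29% of all windows and in 0 of the 7 genes. The letters TGCTGA, searched on both strands, a part of the sites of large MAF-family factors such as NRL, were in 19.5% of all windows and in 3 of the genes, *Vsx1*, *Lhx3* and *Bhlhe23*. The match of *Vsx1* began 37 bases past the RefSeq start. These matches describe letters only.

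The levels of the 9 genes in WT retina spanned a wide range. Levels between genes are given as RPK, the count in a library divided by its size factor and by the length of the gene's median transcript in kb. *Scgn* stood highest, at 9962 ± 945 RPK (SD, n = 4). *Cabp5* and *Isl1* followed at 3785 ± 513 and 3475 ± 188 RPK, and these neighbours overlapped between libraries with this length. *Lhx4* (812 ± 62.0 RPK) and *Bhlhe23* (759 ± 71.4 RPK) formed the next pair and also overlapped. *Vsx1* lay below them at 589 ± 33.9 RPK. *Irx6* (365 ± 39.3 RPK) and *Lhx3* (341 ± 26.5 RPK) overlapped in turn, and *Irx5* was lowest at 100.1 ± 9.29 RPK. The median of the 15422 protein-coding genes tested was 826 RPK, so *Scgn*, *Cabp5* and *Isl1* were above it and the other 6 genes below. With the union of all exons as length, *Scgn* kept the first place at 2892 ± 274 RPK and *Lhx4* went from the fourth to the sixth at 456 ± 34.8 RPK. With that length the 3 overlapping pairs came apart in WT, *Cabp5* (1885 ± 256 RPK) from *Isl1* (1051 ± 56.97 RPK), *Bhlhe23* (759 ± 71.4 RPK) from *Lhx4*, and *Irx6* (335 ± 36.2 RPK) from *Lhx3* (234 ± 18.1 RPK), so these orders depend on the length used. In SCA7 retina the order by median length changed at 2 places, since *Isl1* (3046 ± 82.6 RPK, n = 3) then stood above *Cabp5* (2519 ± 93.0 RPK), and *Lhx3* (302 ± 14.9 RPK) above *Irx6* (257 ± 21.7 RPK). Neither change was seen with the union of exons, where *Cabp5* (1255 ± 46.3 RPK) stayed above *Isl1* (922 ± 25.0 RPK) and *Irx6* (236 ± 19.95 RPK) above *Lhx3* (207 ± 10.2 RPK). With that length another pair changed places instead, since *Vsx1* stood above *Lhx4* in WT (589 ± 33.9 and 456 ± 34.8 RPK) and *Lhx4* above *Vsx1* in SCA7 (479 ± 27.4 and 421 ± 10.1 RPK).

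Of the 9 genes, 4 fell in SCA7 retina and 0 rose at an adjusted p under 0.05. The genes that fell were *Cabp5*, *Irx6*, *Vsx1* and *Isl1*. The genotypes were compared with the quasi-likelihood test of edgeR, and its p was adjusted after Benjamini and Hochberg across the 20128 genes that passed the filter. Of these, 14.2% were called lower and 14.2% higher. At an unadjusted p under 0.05, 6 members were lower and 0 higher, where 20.2% of all genes were lower and 19.5% higher. The DESeq2 Wald test called 4 members lower and 0 higher, against 14.5% and 15.3% of all genes, and limma-voom also called 4 and 0, against 13.8% and 14.3%. With the further limit of a fold change (FC, SCA7/WT) under 0.7, *Cabp5* and *Irx6* remained, against 7.91% of all genes, and above 1.3 there were 0 members, against 7.47%. *Vsx1*, at an FC of 0.708, lay just outside this limit and *Irx6*, at 0.699, just inside. The median log2 FC of the 9 genes was -0.20 and that of all genes tested -0.02. In the following, values by library are counts scaled to library size (CPM) after TMM normalization, which serve to compare 1 gene between libraries.

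**Figure D1:**
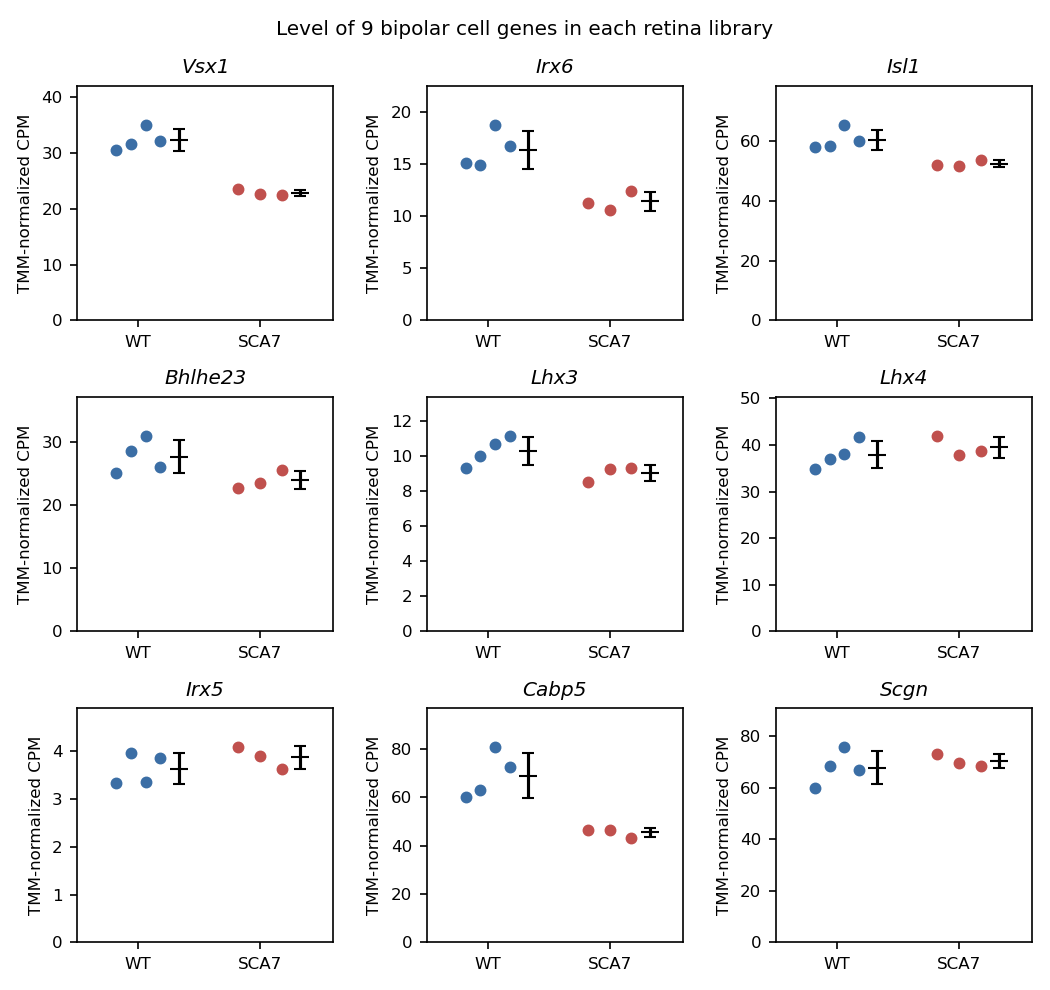
Level of each of the 9 genes in TMM-normalized CPM (vertical axes, each from 0) in the 4 WT and 3 SCA7 libraries. Each point is a library and the bars give the mean and SD. The SCA7 points of *Vsx1*, *Irx6*, *Isl1*, *Lhx3* and *Cabp5* lie below all WT points, those of *Lhx3* by a margin too small to see, and those of *Bhlhe23*, *Lhx4*, *Irx5* and *Scgn* overlap with WT.

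*Vsx1* (ENSMUSG00000033080; chr2:150680702-150689360, minus strand, GRCm38), a paired-like homeodomain gene of cone bipolar cells, had 30.6, 31.7, 35.1 and 32.2 CPM in the WT libraries. The SCA7 libraries had 23.5, 22.7 and 22.5 CPM. The genotypes were far apart, and the 3 SCA7 values were close together. *Vsx1* fell by 29.2%, with a log2 FC of -0.50 (standard error 0.064, adjusted p = 0.000141 from edgeR). With each library left out in turn the log2 FC stayed between -0.52 and -0.46, and the adjusted p was under 0.05 in 7 of 7 fits.

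*Irx6* (ENSMUSG00000031738; chr8:92674288-92680956, plus strand), an Iroquois homeobox gene of OFF cone bipolar cells, had 15.1, 14.9, 18.8 and 16.7 CPM in WT and 11.3, 10.6 and 12.4 CPM in SCA7. Every SCA7 library was below every WT library. *Irx6* fell by 30.1%, with a log2 FC of -0.52 (standard error 0.094, adjusted p = 0.00164 from edgeR), and the 7 fits without 1 library gave -0.58 to -0.44, all called. Its neighbour *Irx5* (ENSMUSG00000031737; chr8:92357625-92376286, plus strand) lies 298.0 kb away on the same strand with 0 protein-coding genes between, and is likewise a gene of OFF cone bipolar cells. *Irx5* had 3.33, 3.96, 3.36 and 3.85 CPM in WT and 4.08, 3.89 and 3.62 CPM in SCA7. These values overlapped, and its log2 FC of 0.09 had a 95% interval of -0.16 to 0.33 (adjusted p = 0.599 from edgeR). The interval of *Irx6*, from -0.72 to -0.31, lay wholly below that of *Irx5*.

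*Isl1* (ENSMUSG00000042258; chr13:116298281-116309689, minus strand), the LIM-homeodomain gene of ON bipolar cells, had 58.0, 58.2, 65.2 and 59.8 CPM in WT. In SCA7 it had 51.9, 51.5 and 53.7 CPM, below all WT libraries but by a small margin. *Isl1* fell by 13.1% under TMM normalization, with a log2 FC of -0.20 (standard error 0.060, adjusted p = 0.0245 from edgeR). This call was lost without any of the SCA7 libraries, at adjusted p values of 0.103, 0.103 and 0.0612 without replicates 1, 2 and 3, while the log2 FC stayed between -0.22 and -0.16 over the 7 fits.

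*Bhlhe23* (ENSMUSG00000045493; chr2:180774381-180776900, minus strand), a basic helix-loop-helix gene of rod bipolar cells, had 25.2, 28.6, 31.0 and 26.1 CPM in WT and 22.8, 23.6 and 25.7 CPM in SCA7. The highest SCA7 library lay above the lowest WT library. The log2 FC was -0.21, much like that of *Isl1*, but with a larger standard error of 0.080 and an adjusted p of 0.0755 from edgeR. Without WT replicate 4 the adjusted p was 0.0427, and with the log2 CPM of *Xist*, which follows the sex of the mouse, as a covariate it was 0.0136. It was under 0.05 in 1 of the 7 fits without 1 library. Over the 14 alternatives with a scaling over most genes it was under 0.05 in 3 and reached 0.259. The log2 FC there ranged from -0.26 to -0.15. The predicted gene *Gm14343*, which overlaps *Bhlhe23* on the same strand, had 9 to 29 counts, against 1402 to 2641 for *Bhlhe23*.

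The LIM-homeodomain pair did not pass the test in either direction. *Lhx3* (ENSMUSG00000026934; chr2:26200212-26208289, minus strand) had 9.33, 10.0, 10.7 and 11.2 CPM in WT and 8.52, 9.29 and 9.31 CPM in SCA7. All SCA7 libraries were below all WT libraries, but the highest SCA7 value almost reached the lowest WT value. Its log2 FC was -0.19 (95% interval -0.37 to -0.0018, adjusted p = 0.122 from edgeR). *Lhx4* (ENSMUSG00000026468; chr1:155698031-155751684, minus strand) had 34.9, 36.9, 38.0 and 41.8 CPM in WT and 41.9, 37.9 and 38.6 CPM in SCA7, with wide overlap. Its log2 FC was 0.06 (95% interval -0.10 to 0.21, adjusted p = 0.58). The antisense gene *Gm27196* overlaps *Lhx3* with 14 to 30 counts, against 524 to 958 for *Lhx3*, and the strand option of the counting is not given in the sources used here.

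The 2 calcium binders stood apart from each other. *Cabp5* (ENSMUSG00000005649; chr7:13398132-13408887, plus strand) had 60.0, 62.8, 80.8 and 72.4 CPM in WT and 46.6, 46.5 and 43.4 CPM in SCA7. The WT libraries were spread widely and the SCA7 libraries were narrow and all lower. *Cabp5* fell by 34.0%, with a log2 FC of -0.60 (standard error 0.094, adjusted p = 0.000624 from edgeR), and from -0.66 to -0.52 over the 7 fits without 1 library, all called. Its interval overlapped those of *Irx6* and *Vsx1*, and without SCA7 replicate 3 *Irx6* (-0.58) was lower than *Cabp5* (-0.57). *Scgn* (ENSMUSG00000021337; chr13:23953456-23991214, minus strand) had 60.0, 68.5, 75.8 and 66.9 CPM in WT and 73.3, 69.7 and 68.3 CPM in SCA7, all SCA7 values within the range of WT. Its log2 FC was 0.05 (95% interval -0.11 to 0.22, adjusted p = 0.626), and without WT replicate 1 it was -0.00065. The interval of *Cabp5*, from -0.81 to -0.39, lay wholly below it.

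The 5 members whose libraries did not overlap between genotypes were all lower in SCA7, where 18.3% of all genes tested had every SCA7 library below every WT library and 19.3% every SCA7 library above. The WT libraries were less uniform than the SCA7 libraries for all 9 genes, with coefficients of variation of 5.61% to 13.7% in WT and 2.23% to 7.92% in SCA7. WT replicate 3 held the highest WT value of 6 genes and WT replicate 1 the lowest of 8. The members had 179 to 4902 counts in WT and 251 to 7026 in SCA7, and the totals over all genes lay between 56497675 and 96635832 counts.

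Ratios of 2 members within a library do not depend on any scaling, and were chosen here after the values were seen, so they are given without a test. *Irx6* had 4.56 ± 0.762 counts (SD, n = 4) for each count of *Irx5* in WT, from 3.77 to 5.59, and 2.98 ± 0.394 (n = 3) in SCA7, from 2.73 to 3.43. *Cabp5* had 1.02 ± 0.0749 counts for each count of *Scgn* in WT and 0.646 ± 0.0187 in SCA7. *Lhx3* had 0.272 ± 0.00674 for each count of *Lhx4* in WT and 0.230 ± 0.0232 in SCA7. In each of these pairs the SCA7 libraries lay below all WT libraries.

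**Figure D2:**
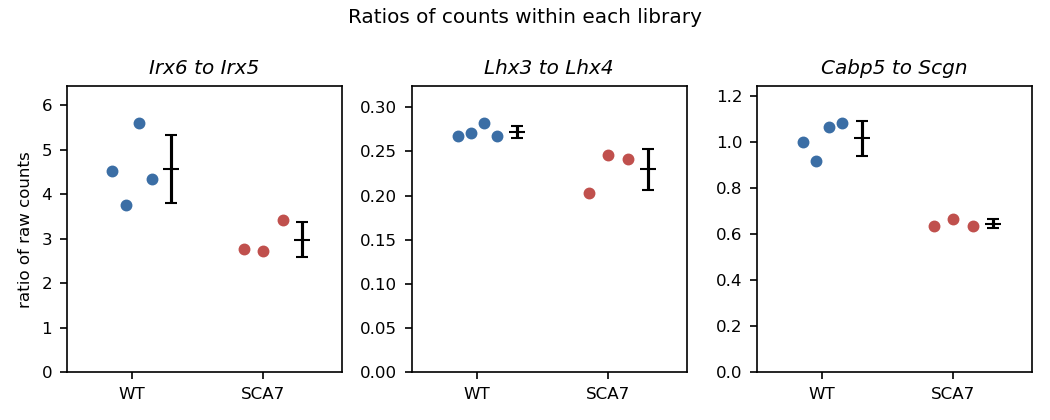
Ratio of raw counts of 2 genes in the same library (vertical axes, each from 0) in 4 WT and 3 SCA7 libraries. Points are libraries and bars the mean and SD, and in each panel the SCA7 points lie below all WT points, for *Cabp5* to *Scgn* at 0.646 on average against 1.02.

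In bulk retina a lower value can stand for fewer cells of a type or for less RNA per cell, and these cannot be told apart. The members were therefore also scaled to other bipolar transcripts, by the mean log2 CPM of 8 genes, among them *Grm6*, *Trpm1*, *Prkca*, *Pcp2* and *Neurod4*. Of these 8 genes 5 were themselves called lower under TMM normalization, with a median log2 FC of -0.22. On this scale the median log2 FC of all genes was 0.23, and 5.48% of genes were called lower and 38.6% higher, so each member is read against that shift. Of the 9 genes, 2 were lower, *Cabp5* at -0.35 (adjusted p = 0.00561 from edgeR) and *Vsx1* at -0.25 (adjusted p = 0.0257), and *Irx6* at -0.27 had an adjusted p of 0.0511. 3 were higher, *Lhx4* at 0.31 (adjusted p = 0.00392), *Irx5* at 0.34 (adjusted p = 0.0445) and *Scgn* at 0.30 (adjusted p = 0.00767) where the median of all genes was 0.23. *Isl1*, *Bhlhe23* and *Lhx3* were at 0.04, 0.04 and 0.07. The calls of *Cabp5*, *Lhx4* and *Scgn* held in 7 of 7 fits without 1 library. That of *Vsx1* held in 2 and was lost without WT replicates 2 (0.056) and 3 (0.052) and without SCA7 replicates 1, 2 and 3 (0.0843, 0.0889 and 0.0782). The log2 FC of *Vsx1* stayed between -0.29 and -0.21 over the 7 fits. That of *Irx5* held in 1 fit, without WT replicate 1, and the other 6 gave adjusted p values up to 0.139, while its log2 FC stayed between 0.30 and 0.39. *Irx6* was called lower in 2 of the 7 fits, without WT replicate 4 (0.0301) and without SCA7 replicate 3 (0.0422). Its log2 FC ranged from -0.35 to -0.20.

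The reference moved the 9 genes and the median of all genes by nearly the same amount. Against the median of all genes on each scale, *Cabp5* lay at -0.58 under TMM normalization and at -0.58 with the reference, *Irx6* at -0.50 and -0.49, *Vsx1* at -0.48 and -0.48, *Bhlhe23* at -0.19 and -0.19, *Isl1* at -0.18 and -0.18, and *Lhx3* at -0.17 and -0.16. *Irx5* lay at 0.11 and 0.11, *Lhx4* at 0.08 and 0.08 and *Scgn* at 0.07 and 0.07. New library factors shift all genes by nearly the same amount, so the position of the members relative to most genes could hardly differ between the scales. That it stayed the same is no further support for the changes. The signs of *Isl1*, *Bhlhe23* and *Lhx3* differ only because the zero moved.

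**Figure D3:**
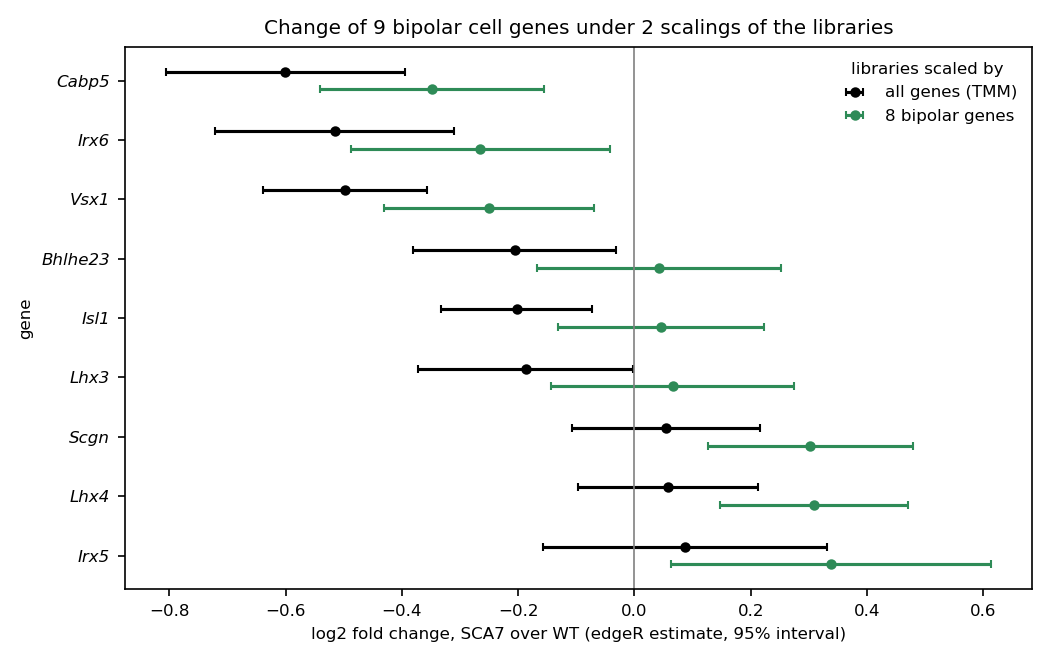
Log2 FC of the 9 genes (horizontal axis, SCA7 over WT, with 95% intervals) under TMM normalization and with 8 bipolar genes as reference. The reference shifts the 9 genes to the right by about the same amount, since it only replaces the library factors. The median of all genes is at -0.02 under TMM normalization and at 0.23 with the reference. This shift keeps the order of the 3 lowest genes, *Cabp5*, *Irx6* and *Vsx1*.

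Other bipolar genes and relatives of the members gave a setting for the members. Of the 5 lists used, some hold bipolar genes and the others Iroquois genes or EF-hand calcium binders, which are not all of bipolar cells. Of their 67 genes, 24 fell and 7 rose under TMM normalization, where 14.2% of all genes fell and 14.2% rose. The EF-hand calcium binders gave 7 of the 24. With the 8-gene reference, 11 were called lower and 18 higher of the 59 genes not in the reference. On that scale 5.48% of all genes were called lower and 38.6% higher, and the median of all genes is 0.23. The lists were described by their counts and not tested as sets, and their medians are given under TMM normalization and then, over the genes outside it, with the 8-gene reference. Among 12 other regulators of bipolar cells, 3 fell and 2 rose, with a median log2 FC of -0.03 (0.22 over 10 genes with the 8-gene reference). *Sebox*, a homeobox gene, fell from 66.7 ± 15.1 to 29.0 ± 3.95 CPM (log2 FC -1.20, adjusted p = 0.00191 from edgeR). *Fezf2*, a zinc finger gene, fell by 0.36 on the log2 scale (adjusted p = 0.0259), and *Neurod4*, a proneural gene, fell by 0.25 (adjusted p = 0.0433) but was at 0.0034 with the reference, of which it is a part. *Nfib*, a nuclear factor I gene, rose by 0.36 (adjusted p = 0.000926), and *Otx2*, the homeobox gene that bipolar cells share with photoreceptors, rose from 175 ± 8.56 to 212 ± 5.30 CPM (log2 FC 0.27, adjusted p = 0.00587).

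Genes of the ON bipolar light response, which runs from the glutamate receptor GRM6 to the channel TRPM1, formed a second list. Of 14 genes, 8 fell and 1 rose, with a median of -0.36 (-0.08 over 9 genes with the 8-gene reference). *Lrit3*, which helps to place TRPM1 at the dendritic tip, had a log2 FC of -0.91 (adjusted p = 1.13e-05 from edgeR), *Rgs9bp*, an anchor of RGS proteins that photoreceptors also use, -0.90 (adjusted p = 0.000449), and *Pcp2*, a modulator of G proteins, -0.74 (adjusted p = 0.000281). *Gnb3*, the G protein subunit that cones share with ON bipolar cells, rose by 1.06 (adjusted p = 5.46e-07). Whole retina does not show in which cells the genes of this list changed. Of 24 markers of single bipolar types, 6 fell and 4 rose, with a median of -0.11 (0.14 over 23 genes with the 8-gene reference). Among them, *Cck*, a neuropeptide gene, fell by 0.75 on the log2 scale (adjusted p = 0.000271 from edgeR) and *Neto1*, which encodes an auxiliary subunit of kainate receptors, by 0.67 (adjusted p = 0.00378). *Kcng4*, a potassium channel subunit gene, rose from 26.1 ± 1.02 to 49.1 ± 5.37 CPM (log2 FC 0.91, adjusted p = 3.77e-06), *Slitrk5* by 0.46 (adjusted p = 0.00148) and *Pcdh17*, a protocadherin gene, by 0.29 (adjusted p = 0.0281).

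The families of the members were also examined. Of the 4 other Iroquois genes measured, *Irx1* to *Irx4*, 0 were called by edgeR in either direction, 0 had an unadjusted p under 0.05, and DESeq2 and limma-voom called 0. Their median was -0.15 (0.10 with the 8-gene reference), and *Irx3* had a log2 FC of -0.04 (adjusted p = 0.871). Of 13 other EF-hand calcium binders of the retina, 7 fell and 0 rose in edgeR, with a median of -0.31 (-0.07 with the 8-gene reference). At an unadjusted p under 0.05 the counts were 8 and 0, and DESeq2 called 8 and 0 and limma-voom 7 and 0. *Cabp4*, which acts at photoreceptor synapses, fell from 223 ± 12.0 to 96.1 ± 13.5 CPM (log2 FC -1.21, adjusted p = 2.22e-06 from edgeR). *Cabp2*, a gene of bipolar cells and of hair cells, fell by 0.74 on the log2 scale (adjusted p = 0.000467) and *Cabp1* by 0.46 (adjusted p = 9.14e-05). These 3 relatives of *Cabp5* were also called lower with the 8-gene reference.

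**Figure D4:**
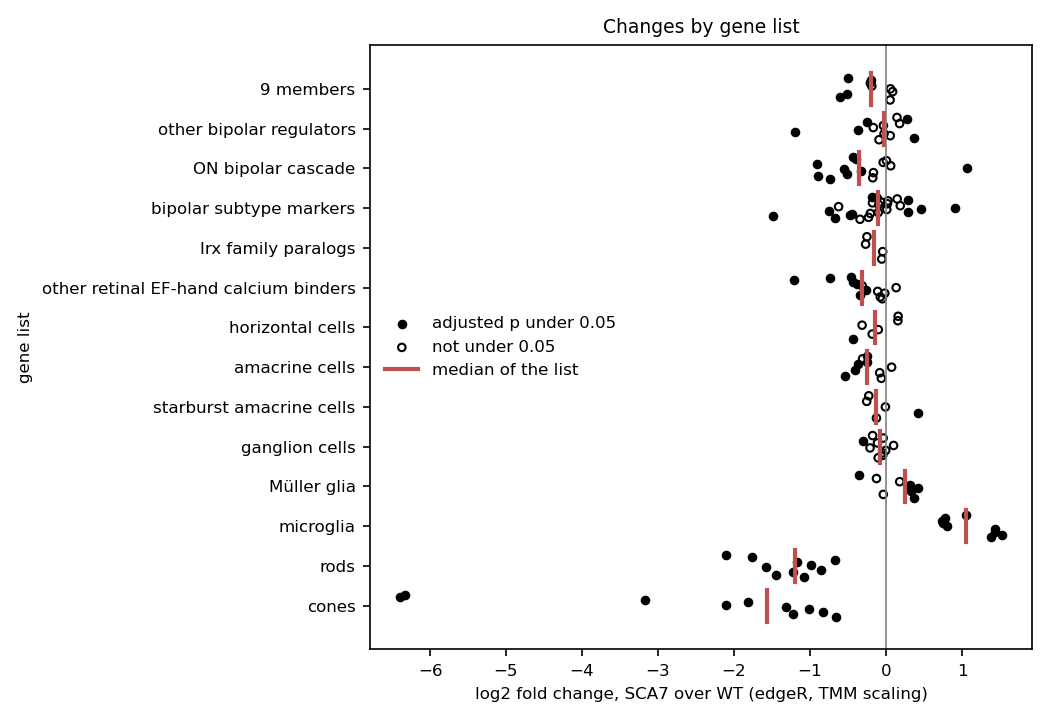
Log2 FC (horizontal axis, SCA7 over WT, TMM normalization) of each tested gene in the 9 members, 5 lists of related genes and markers of other retinal cells. Filled points have an adjusted p under 0.05 and red lines are medians, at -0.20 for the members, -1.20 for rods, -1.57 for cones and 1.06 for microglia.

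Markers of other cells moved with the genotype, counted here under TMM normalization, where 14.2% of all genes fell and 14.2% rose. All 10 rod markers and all 10 cone markers fell, with medians of -1.20 and -1.57, and the rod markers summed to 64056 to 65947 CPM in WT and 17249 to 22238 CPM in SCA7. All 9 microglial markers rose (median 1.06). Of the markers of inner retinal cells, 5 of 9 fell for amacrine cells (median -0.25), 1 of 6 for horizontal cells (-0.14) and 1 of 10 for ganglion cells (-0.07), and 1 of 5 rose for starburst amacrine cells (-0.13). With the 8-gene reference these medians were -0.0033, 0.11, 0.17 and 0.13. On that scale 0 of these markers were called lower, and 1, 1, 2 and 2 of the lists were called higher. Of all genes 5.48% were called lower there and 38.6% higher. For Müller glia 4 of 8 rose and 1 fell (0.25), and for endothelium and pericytes 5 of 7 rose and 1 fell (0.28). Markers of tissue around the retina varied as well. Those of the pigment epithelium summed to 70.0 to 141 CPM in WT and 17.2 to 43.0 CPM in SCA7, 3 of 6 fell, and 3 of the 4 tested muscle markers fell, while the 5 tested lens markers, with sums of 44.0 to 576 CPM in WT and 32.6 to 933 CPM in SCA7, had 0 calls by edgeR, 0 at an unadjusted p under 0.05 and 0 by DESeq2 and limma-voom. The study counts *Cabp5* among its photoreceptor specific genes and *Isl1* among its CRX targets, and the part of the rod, cone, amacrine and other markers in the members' values was not tested. *Atxn7*, which carries the knock-in, had 39.2 ± 4.26 CPM in WT and 37.6 ± 2.99 CPM in SCA7 (log2 FC -0.06, adjusted p = 0.636), and its level does not show the repeat.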

How the data were processed

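Stranded libraries were made from ribo-depleted total RNA of mouse retina and read from 1 end. Per the submitters' processing notes and the methods of the study, the authors mapped the reads to mm10 with TopHat2 2.0.14 and Bowtie2 2.1.0 and made counts for Ensembl genes with HTSeq 0.6.1. The deposited values are raw counts without normalization. The mode and strand option of the counting are not given in the sources used here. Names and positions came from GENCODE for GRCm38, which covered 52403 of the 52550 genes, and 0 rows named no gene. Mice are the replicates, and groups follow the sample titles.

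Genes were filtered with filterByExpr, scaled with TMM factors and compared in edgeR 4.0.16 (R 4.3.3) by its quasi-likelihood test (robust, no covariates), with Benjamini-Hochberg adjustment over 20128 genes. Standard errors were derived from that fit. The bipolar reference replaced the TMM factors by the mean log2 CPM of the reference genes, which were left out of the counts on that scale. RPK used DESeq2 1.42.0 size factors. Because counts are normalized to most genes, every change is relative to them. The same steps were tested on simulated data.

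The alternatives were DESeq2 size factors, the DESeq2 Wald test, limma-voom (limma 3.58.1), other filters (a minimum of 1 count in any library, or of 10 counts in every library), a replicate block, a covariate for *Xist* (its log2 CPM, prior count 0.5), a threshold of 0.01, FC limits, and each library left out. The members, the lists and the motifs were chosen with earlier results of these data known. Named from each list are the 3 called genes with the largest decrease and the 3 with the largest increase, with *Otx2*, *Irx3*, *Cabp4* and *Atxn7* whatever their values, and the 2 genes whose pattern is most like each member. A few named genes, and 1 alternative reference for the scaling, are not reported here. The ChIP-seq data of the study were not analysed here.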

Additional observations from a re-analysis of the deposited data

How the results depend on the processing

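*Cabp5*, *Irx6* and *Vsx1* kept their direction and an adjusted p under 0.05 in all 14 alternatives that kept a scaling over most genes. *Isl1* kept its direction there and its call in 10 of 14, and lost it also without a filter on low counts (adjusted p = 0.0656). With 8 bipolar genes as reference 2 members were called lower and 3 higher, 11 of the 59 genes of the other 5 lists lower and 18 higher (24 and 7 of 67 under TMM), and 1103 of all genes lower and 7773 higher (2852 and 2853 under TMM). That reference moved the median of all genes from -0.02 to 0.23, which alone put *Isl1*, *Bhlhe23* and *Lhx3* above 0, at 0.045, 0.043 and 0.066. *Bhlhe23* on the 8-gene scale changed sign without WT replicate 4 (-0.023) and without SCA7 replicate 3 (-0.028), in a range up to 0.099 over the 7 fits. *Scgn* under TMM was -0.00065 without WT replicate 1, in a range up to 0.11. The FC limits left 2 members, 10 list genes lower and 3 higher, and 1592 of all genes lower and 1504 higher, and an adjusted p under 0.01 left 1580 and 1608 of all genes. Leaving out a library gave 3 to 5 members lower, 1771 to 3363 of all genes lower and 1748 to 3523 higher, the fewest without SCA7 replicate 1. On the 8-gene scale it gave 1 to 3 members lower, with 1 without WT replicates 2 and 3 and SCA7 replicates 1 and 2, and 2 to 3 higher. Shares of all genes were not counted for these fits. With all libraries they were 5.48% lower and 38.6% higher on that scale. The cause of these moves was not tested.

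Same-numbered WT and SCA7 libraries deviated from their group means with correlations of 0.0096, 0.197 and 0.0787 for replicates 1, 2 and 3. The value of 0.197 was the highest of all WT and SCA7 pairs, and 0.0787 was the highest for WT replicate 3. WT replicate 1 correlated best with SCA7 replicate 2 (0.0521). The sample titles also carry a second number, which lies close together in same-numbered libraries. The labels do not say that either number marks a shared litter or day, so the main fit did not pair mice, and a pairing remains possible. With the replicate block 5 members were lower, with *Bhlhe23* at an adjusted p of 0.00921, and 3418 of all genes were lower and 3461 higher. With *Xist* as a covariate 5 members were lower and 0 higher, and 3482 of all genes lower and 3735 higher. On the 8-gene scale the block gave 3 members lower and 2 higher, and the share of all genes was not counted for that fit. There *Irx6* was called (adjusted p = 0.0137 from edgeR), *Irx5* was not (adjusted p = 0.0733), and *Bhlhe23* was at -0.026.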

Other observations

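Among 163 genes of the lists used here, those whose log2 CPM ran most like each member over the 7 libraries were named by Pearson's r, 1 or 2 for each. The 7 values share libraries and genotype, so each r is a description without a test. *Vsx1* ran most like *Calb1*, a calbindin gene of horizontal and amacrine cells (r = 0.990). *Isl1* ran most like *Tfap2c*, an amacrine factor, and *Gng13*, a G protein subunit gene of ON bipolar cells (both 0.992). *Irx6* ran most like *Isl1* (0.986) and *Tfap2c* (0.979), and *Cabp5* most like *Pcp2* (0.986) and *Cck* (0.985). Of the members that did not pass the test, *Bhlhe23* ran most like *Th*, the tyrosine hydroxylase gene of dopaminergic amacrine cells (0.975), and *Car8* (0.956), and *Lhx3* most like *Neto1* (0.937) and *Pax6* (0.884). For *Lhx4* (*Nfia* 0.856), *Irx5* (*Igfbp5* 0.866, *Onecut1* 0.854) and *Scgn* (*Slc1a3* 0.902, *Sox6* 0.840) the highest r was below the highest r of each other member.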
